A study of Mus musculus with 18 samples.

Results

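The mitochondrial genome transcripts were the 37 genes that lie on the mouse mitochondrial chromosome (chrM, build GRCm38), out of 46078 genes in the count table. They were chosen by position alone and comprise 13 messenger RNAs (mt-mRNAs), 2 ribosomal RNAs (mt-rRNAs) and 22 transfer RNAs (mt-tRNAs). All 37 had a row in the table. The cells were mouse E14 embryonic stem cells (mESCs) of a 129 background, grown on fibronectin-coated polyacrylamide StemBond gels for 24 h, in serum medium that held the cytokine LIF. Gels were soft (750 Pa) or stiff (160 kPa), and the co-factor AHA (6-acrylamidohexanoic acid), which tethers extracellular matrix to the gel, was present at 16 mM (low), 48 mM (mid) or 80 mM (high). Each of the 6 combinations had 3 libraries, all from 1 cell line. The labels do not say whether the libraries of a group came from separate cultures, so p-values measure the spread between these libraries, which may be technical. In the gene tests the spread of each gene also draws on that of the other genes.

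Mitochondrial DNA is a small circle that is transcribed from both strands into long precursors. These are processed, largely at the tRNAs that lie between the other genes, into 2 rRNAs, 22 tRNAs and the mRNAs of 13 subunits of the respiratory chain and ATP synthase. The other subunits, and the proteins that copy, transcribe and process mitochondrial RNA, are encoded in the nucleus. Cultured mESCs use glycolysis together with mitochondrial respiration.

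One soft, high AHA library (replicate 1) was left out of the tests because ERCC spike-in RNAs, which are added to each sample from outside, took 1.37% of its counts, against 0.607 to 0.725% in the other 17. These 17 libraries held 5850621 to 9290261 gene counts. The 7 mESC markers (Pou5f1, Sox2, Nanog, Zfp42, Esrrb, Klf4, Tfcp2l1) were present in all 17, with a summed level of 1802 to 1977 counts per 1000000 counts of the library (CPM) on soft and 1598 to 1730 on stiff gels. The 5 primitive endoderm markers summed to 15.6 to 21.2 CPM on soft and 12.1 to 21.2 on stiff, the 5 fibroblast markers to 114 to 197 and 166 to 237, and the 4 formative markers to 678 to 792 and 778 to 849, with each marker above 0 in every library. Single genes led the last sums: Col1a1 (80.6 to 196 CPM) for fibroblast and Dnmt3b (605 to 745) for formative markers. The other fibroblast markers (Col1a2, Col3a1, Thy1, Postn) reached at most 30.0 CPM and the other formative markers (Fgf5, Pou3f1, Otx2) 84.0. Their part in the results below was not tested. In these bulk samples, fewer cells of a type and less RNA per cell cannot be told apart, nor can fewer mitochondrial genomes and less RNA per genome.

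Several mitochondrial genes have near-identical copies in nuclear DNA, which bears on how their reads could be counted. Their annotated transcripts were compared here in sequences from the GENCODE M21 transcripts of GRCm38. The first 60 bases of mt-Co3, a core subunit of complex IV (chrM:8607-8666, plus strand), and those of the chromosome 1 pseudogene Gm28437 (chr1:24613912-24613971, minus strand) show a stretch with no difference, which runs on over 783 aligned bases.
mt-Co3: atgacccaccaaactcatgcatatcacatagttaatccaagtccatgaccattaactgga
Gm28437: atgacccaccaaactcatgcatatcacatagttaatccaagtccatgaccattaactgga
The first 120 bases of mt-Co1, the catalytic subunit of complex IV (chrM:5328-5447, plus strand), and the matching bases of the chromosome 2 pseudogene Gm13340 (chr2:22589528-22589647, minus strand) show a copy that can be told apart. Capitals mark the 3 differing bases, which counted from the first base of mt-Co1 are C54A, A60G and G87A.
mt-Co1: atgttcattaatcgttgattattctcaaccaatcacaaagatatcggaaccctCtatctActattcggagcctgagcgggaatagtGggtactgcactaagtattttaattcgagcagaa
Gm13340: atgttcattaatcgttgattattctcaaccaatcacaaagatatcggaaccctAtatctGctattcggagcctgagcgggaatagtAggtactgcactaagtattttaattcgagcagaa

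Neighbouring genes also share bases on the circle itself. The whole of mt-Atp8, a small membrane subunit of ATP synthase (chrM:7766-7969, plus strand), is shown because its last 43 bases, in capitals, are also the first bases of mt-Atp6. A read lying on such bases belongs to both genes and is counted as ambiguous by HTSeq in its default mode. The mt-Nd4l and mt-Nd4 genes share 7 bases on 1 strand, and mt-Nd5 and mt-Nd6 share 14 on opposite strands.
mt-Atp8: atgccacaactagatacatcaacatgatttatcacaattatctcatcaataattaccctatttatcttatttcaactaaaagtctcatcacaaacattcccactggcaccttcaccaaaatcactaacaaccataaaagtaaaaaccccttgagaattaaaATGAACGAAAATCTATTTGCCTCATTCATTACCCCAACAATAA

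The nuclear copies were concentrated in 1 block. A search with BLAST found 11 annotated pseudogenes with at least 95% identity to a mitochondrial gene over at least 100 bases. Of these, 7 lay on chromosome 1 within 24611535 to 24616197, in the reverse order and spacing of chrM from 6390 to 11042 to within 1 base. That stretch of 4653 bases runs from within mt-Co1 through mt-Co2, mt-Atp8, mt-Atp6, mt-Co3, mt-Nd3 and mt-Nd4l into mt-Nd4. Identity was 100% for the copies of mt-Co2 (681 bases), mt-Atp6 (678 bases), mt-Co3 (783 bases), mt-Nd4l (294 bases) and the first 876 bases of mt-Nd4, and 99.7% for that of mt-Nd3.

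Levels differed widely between members. On the scale of mean counts per kb of gene over the 17 libraries, mt-Rnr2, the RNA of the large ribosomal subunit, stood at 198212 and mt-Rnr1, that of the small subunit, at 133527. The mt-mRNAs were lower. The complex I core subunit mt-Nd1 (14058), mt-Co1 (13167), the complex III core subunit mt-Cytb (9521) and the complex I subunit mt-Nd5 (5519) led, followed by mt-Atp6, the proton channel subunit of ATP synthase (4640), and the complex I subunits mt-Nd6 (4542), mt-Nd4 (3655) and mt-Nd2 (3342). The lowest were the complex IV subunits mt-Co2 (1356) and mt-Co3 (912), mt-Atp8 (704) and the small complex I subunits mt-Nd4l (332) and mt-Nd3 (223).

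The order followed the nuclear block in part. For mt-Co2, mt-Co3, mt-Nd3 and mt-Nd4l, 98.0% or more of all 50-base windows also occurred in another annotated transcript. These were 4 of the 5 lowest mt-mRNAs, and the other, mt-Atp8, lies within the block although no annotated transcript there holds its windows. For mt-Atp6 the share was 99.5%, for mt-Nd4 62.2% and for mt-Co1 51.1%. It was 8.19% for mt-Nd2 and 7.61% for mt-Nd5, and 0% for mt-Nd1, mt-Nd6 and mt-Cytb. The copies took few counts: Gm10925, the copy of mt-Atp6 and the one copy with a mean of at least 100 counts, had 139 to 289 counts a library (mean 202), against a mean of 3160 for mt-Atp6. The table's line for reads without a unique alignment held 0 in every library. Levels per 1000 window starts found in no other annotated transcript gave another order, with mt-Co1 at 27828 above mt-Nd1 at 14816, and mt-Nd4 at 10034 above mt-Cytb at 9947 and mt-Nd5 at 6138. That scale could not be used for mt-Co2, mt-Atp6, mt-Co3, mt-Nd3 and mt-Nd4l, which had 6 or fewer such starts. How reads with more than 1 place were treated is not given in the sources used here, and the part of this in the low counts was not tested.

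**Figure D1:**
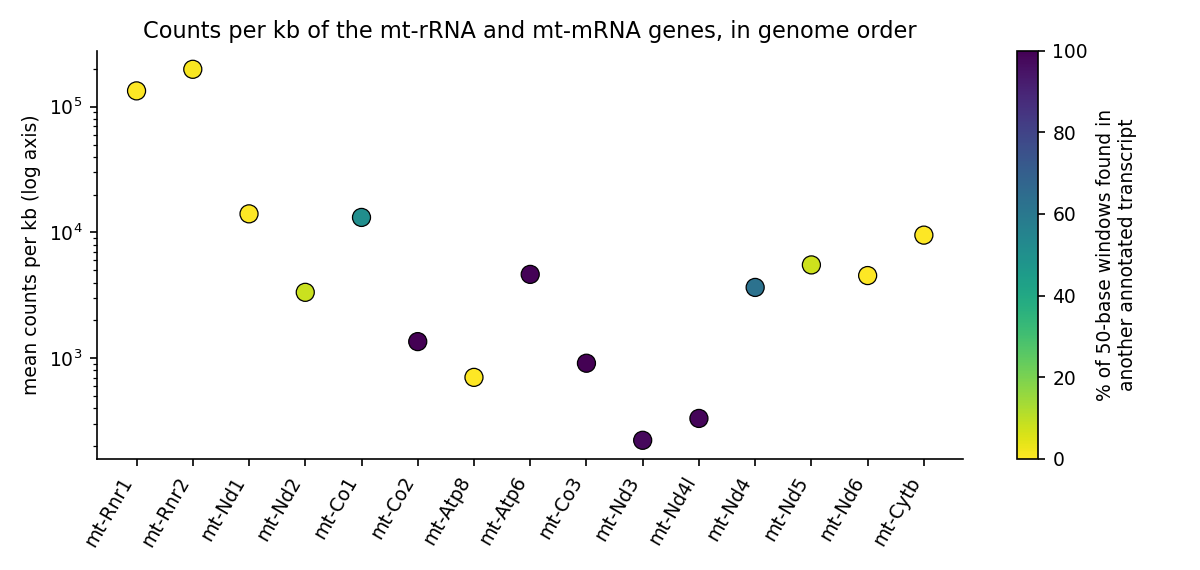
Mean counts per kb over 17 libraries (vertical axis, log scale) for the 2 mt-rRNAs and 13 mt-mRNAs in genome order, coloured by the percentage of their 50-base windows found in another annotated transcript. Of the 5 lowest mt-mRNAs, mt-Co2, mt-Co3, mt-Nd3 and mt-Nd4l are dark (98.0% or more), and mt-Atp8 is not.

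The mt-tRNAs were barely captured. The 22 genes held 56 to 149 counts a library in sum. Of these genes, mt-Tn and mt-Td had 0 counts in all 18 libraries, which over 139934726 gene counts allows a share of up to 2.14e-06% (counting error only), and 11 had a mean below 1 count. The 8 genes on the minus strand took 71.4% of the mt-tRNA counts and the 14 on the plus strand 28.6%. The 5 highest were mt-Te (mean 28.8 counts), mt-Tp (15.1), mt-Tc (9.94), mt-Tg (9.24) and mt-Ty (6.76), which carry glutamate, proline, cysteine, glycine and tyrosine. The sequences of the leading pair, which held the most mt-tRNA counts, read as follows (chrM:14071-14139 and chrM:15356-15422, both minus strand).
mt-Te: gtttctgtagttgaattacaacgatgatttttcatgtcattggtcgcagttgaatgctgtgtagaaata
mt-Tp: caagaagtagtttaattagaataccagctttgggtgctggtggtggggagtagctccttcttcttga
All 4 of mt-Te, mt-Tp, mt-Tc and mt-Ty are encoded on the minus strand. Whether reads were counted by strand was not stated, so a tRNA, or mt-Nd6, the only mt-mRNA on that strand, cannot be told apart from precursor RNA of the other strand.

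Mitochondrial genes took 5.55 to 7.25% of gene counts in the 17 libraries. On soft gels the shares were 7.25, 7.09 and 7.14% at low AHA, 6.21, 6.91 and 6.94% at mid AHA, and 6.51 and 6.27% at high AHA. On stiff gels they were 6.73, 6.79 and 6.78% at low AHA, 6.35, 6.29 and 6.06% at mid AHA, and 7.17, 6.20 and 5.55% at high AHA. The low AHA libraries lay close together at each stiffness, and at high AHA on stiff gels the 3 libraries spanned nearly the whole range. The library left out had the highest share of all 18 (7.37%).

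Most of this was rRNA. The 2 mt-rRNAs took 4.77 to 6.26% of gene counts, 5.83 to 6.82 times the counts of the 13 mt-mRNAs. These in turn held 1.09 to 1.50% of protein-coding counts. The 22 mt-tRNAs together took 0.000704 to 0.00187% of gene counts. The paper lists several library kits, RiboZero among them, without naming the one used here. How far rRNA had been depleted was not tested, so mt-rRNA levels and shares describe these libraries, not the cells. The row Gm26917 alone took 11.5 to 14.5% of gene counts. With it, Gm42418 and Gm23935 left out of the total, no share passed after adjustment (exact permutation, lowest adjusted p = 0.0693).

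**Figure D2:**
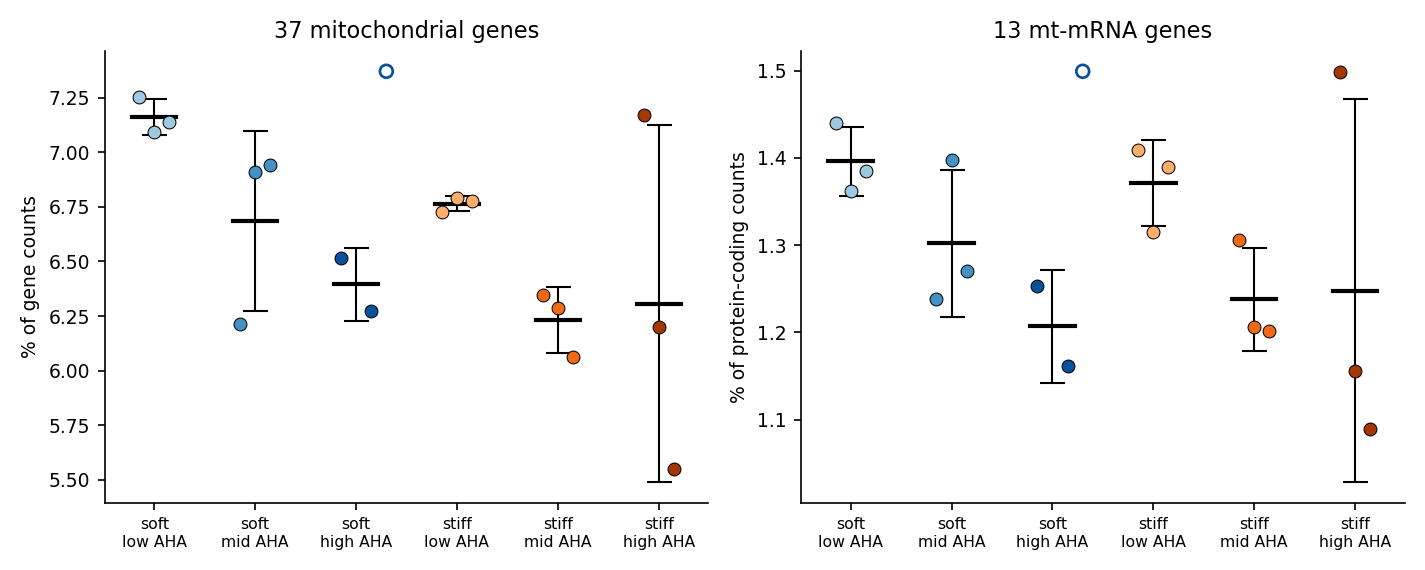
Share of gene counts in the 37 mitochondrial genes (left, %) and of protein-coding counts in the 13 mt-mRNAs (right, %) for each library by group, with axes that do not start at 0. Bars give the mean ± SD of the libraries used (n = 3, or 2 for soft, high AHA) and open points the library left out (7.37 and 1.50%). The 3 stiff, high AHA libraries span 5.55 to 7.17% on the left.

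No share passed the test between soft and stiff gels with labels permuted over all 17 libraries. The mitochondrial share was 6.79% ± 0.404 (SD, n = 8) for soft gels against 6.43% ± 0.485 (SD, n = 9) for stiff gels (two-sided exact permutation test, p = 0.121, adjusted over 8 share tests 0.138). For mt-rRNA the values were 5.87% ± 0.359 and 5.53% ± 0.405 (exact permutation, adjusted p = 0.113), for mt-tRNA 0.00144% ± 0.000333 and 0.00116% ± 0.000288 (exact permutation, adjusted p = 0.113), and for mt-mRNA among protein-coding counts 1.31% ± 0.0964 and 1.29% ± 0.133 (exact permutation, adjusted p = 0.627). With stiffness labels permuted within AHA concentrations the adjusted p were 0.08 for the 37 genes, 0.0752 for mt-rRNA, 0.05 for mt-tRNA, at the threshold, and 0.619 for mt-mRNA (exact permutation).

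Mean shares were lower at high than at low AHA, but not past the threshold after adjustment. The mitochondrial share was 6.34% ± 0.586 (SD, n = 5) at high AHA and 6.96% ± 0.225 (SD, n = 6) at low AHA (exact permutation, p = 0.0303, adjusted 0.0808). The mt-rRNA share was 5.47% ± 0.486 against 6.00% ± 0.223 (exact permutation, adjusted p = 0.0808), and the mt-tRNA share 0.00108% ± 0.000307 against 0.00159% ± 0.000199 (exact permutation, adjusted p = 0.0808). The mt-mRNA share of protein-coding counts was 1.23% ± 0.160 against 1.38% ± 0.0424 (exact permutation, adjusted p = 0.108). With AHA labels permuted within stiffness the adjusted p were 0.05, at the threshold, for the 37 genes, mt-rRNA and mt-tRNA, and 0.08 for mt-mRNA (exact permutation). Single libraries decided these calls. Without stiff, high AHA replicate 1 the difference in mitochondrial share grew from -0.622 to -0.830 percentage points, that in mt-rRNA share from -0.535 to -0.699 and that in mt-mRNA share from -0.152 to -0.219 (exact permutation, adjusted p = 0.0127 for each). Without soft, high AHA replicate 3 the difference in mt-tRNA share grew from -0.000516 to -0.000634 (exact permutation, adjusted p = 0.0381). With all 18 libraries the differences in mitochondrial and mt-mRNA share were -0.451 and -0.107 (exact permutation, adjusted p = 0.202 and 0.203).

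The mt-mRNAs were then compared gene by gene with edgeR's quasi-likelihood test among 13438 protein-coding genes. Between soft and stiff gels, averaged over AHA, none of the 13 was called at an adjusted p under 0.05, where 8.59% of all genes tested were. None of the 13 reached an unadjusted p under 0.05 either, as 20.5% of all genes did, and DESeq2 called 0. The log2 fold changes ran from -0.14 (mt-Nd4l, SE 0.10) to 0.15 (mt-Nd3, SE 0.11), with 7 above and 6 below 0 and a median of 0.02 beside 0.00 for all genes. The abundant genes lay near 0: mt-Co1 at 0.08 (SE 0.06), mt-Nd5 at 0.05 (SE 0.07), mt-Nd6 at 0.07 (SE 0.06), mt-Nd4 at -0.00 (SE 0.07), mt-Nd2 at -0.04 (SE 0.05), mt-Cytb at -0.05 (SE 0.07), mt-Nd1 at -0.08 (SE 0.05) and mt-Atp6 at -0.08 (SE 0.06). The rest were mt-Co2 at 0.06 (SE 0.07), mt-Co3 at 0.02 (SE 0.04) and mt-Atp8 at 0.04 (SE 0.21).

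The levels overlapped for every one of the 13. The soft libraries held mt-Co1 at 3567 to 4145 CPM (median 3854) and the stiff libraries at 3086 to 4106 (median 3766). For mt-Nd1 the soft range was 2182 to 2613 (median 2409) and the stiff range 2314 to 2975 (median 2482). Of the 13438 genes tested, 1.27% had soft and stiff levels that did not overlap. Without stiff, high AHA replicate 1, 4 mt-mRNAs were called higher on soft gels: mt-Co1 at 0.12 (edgeR, adjusted p = 0.0240), mt-Co2 at 0.13 (edgeR, adjusted p = 0.0185), mt-Nd5 at 0.12 (edgeR, adjusted p = 0.0425) and mt-Nd6 at 0.12 (edgeR, adjusted p = 0.000932), where 8.49% of all genes were. With library sizes from ERCC counts, which moved the median of all genes to 0.07, mt-Co1 was called at 0.14 (edgeR, adjusted p = 0.0333), where 6.91% of all genes were.

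At single AHA concentrations none of the 13 was called between soft and stiff gels, and none had an unadjusted p under 0.05. DESeq2 likewise called 0 at each. Among all genes 3.04% were called at low AHA, 2.86% at mid AHA and 0.841% at high AHA, and 13.1, 13.6 and 10.5% had an unadjusted p under 0.05. The lowest adjusted p among the 13 was 0.742 at low AHA (mt-Co3), 0.470 at mid AHA (mt-Nd4l) and 0.603 at high AHA (mt-Nd1). Without stiff, high AHA replicate 1, mt-Nd6 was called higher on soft gels at mid AHA (0.16 in edgeR, adjusted p = 0.0307), where 2.99% of all genes were called, and without replicate 3, mt-Nd2 was called lower on soft gels at high AHA (-0.26 in edgeR, adjusted p = 0.0103), where 0.381% were. With only the groups compared in the fit, mt-Nd6 was also called at mid AHA (0.16 in edgeR, adjusted p = 0.0334), where 2.98% were. The interaction of stiffness and AHA called none of the 13 (0 with an unadjusted p under 0.05, beside 6.71% of all genes, and 0 by DESeq2, with no adjusted p for 3) and 0.0298% of all genes. The F test for any difference among the 6 groups called none of the 13, where 5.77% of all genes were called. For that test 3 of the 13 (23.1%) had an unadjusted p under 0.05, beside 16.7% of all genes, and DESeq2 called 1, mt-Nd2, where it called 4.65% of all genes. The F test called 6 of the 13 without stiff, high AHA replicate 1, where 5.61% of all genes were called, and 1, mt-Nd2, without replicate 3, where 4.86% were. It called 1, mt-Nd6, with ERCC library sizes (edgeR, adjusted p = 0.0172), where 3.45% were, and 1, mt-Co2, with a minimum of 2 counts (edgeR, adjusted p = 0.0464), where 4.7% were.

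For high against low AHA, averaged over both stiffnesses, all 13 mt-mRNAs had log2 fold changes below 0 on the 17 libraries, although mt-Atp6 and mt-Co3 turned to 0.02 and 0.01 with all 18, and mt-Atp6 to 0.01 with library sizes from ERCC counts. The values ran from -0.50 for mt-Atp8 (SE 0.27) to -0.05 for mt-Atp6 (SE 0.07), with a median of -0.22 beside -0.00 for all genes. With each library left out in turn, the lowest value of the 15 mt-mRNA and mt-rRNA genes ran from -0.88 to -0.36, and the highest from -0.098 to -0.015. On the 17 libraries none of the 13 was called, where 0.112% of all genes were. Of the 13, 7 (53.8%) had an unadjusted p under 0.05, as had 8.64% of all genes. The lowest was mt-Nd4l at -0.38 (SE 0.12 in edgeR, adjusted p = 0.230), followed by mt-Nd2 at -0.27 (SE 0.07 in edgeR, adjusted p = 0.232) and mt-Nd6 at -0.26 (SE 0.08 in edgeR, adjusted p = 0.341). The other 4 were mt-Nd3 at -0.30, mt-Cytb at -0.22, mt-Co2 at -0.23 and mt-Nd5 at -0.21. DESeq2, which gave no adjusted p for 3 of the 13, called mt-Nd2 (-0.27, adjusted p = 0.0167). It called 0.149% of all genes, those without an adjusted p included, so the share among genes that it could call was higher.

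The calls turned on 2 libraries of the stiff, high AHA group. Without replicate 1, 6 mt-mRNAs were called lower at high AHA, where 0.269% of all genes were called: mt-Nd2 at -0.34 (edgeR, adjusted p = 7.74e-15), mt-Nd6 at -0.34 (edgeR, adjusted p = 2.51e-12), mt-Co2 at -0.32 (edgeR, adjusted p = 2.64e-06), mt-Nd1 at -0.18 (edgeR, adjusted p = 2.89e-05), mt-Nd5 at -0.30 (edgeR, adjusted p = 0.00354) and mt-Co1 at -0.22 (edgeR, adjusted p = 0.0391). Without replicate 3, 1 was called, mt-Nd2 at -0.22 (edgeR, adjusted p = 0.00328), where 0.0522% of all genes were. These p-values draw in part on the spread of other genes, which is mostly smaller within groups, and may be too small.

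The deviations of these genes correlated across libraries, as given further on, so 13 values of 1 sign are not 13 separate observations.

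**Figure D3:**
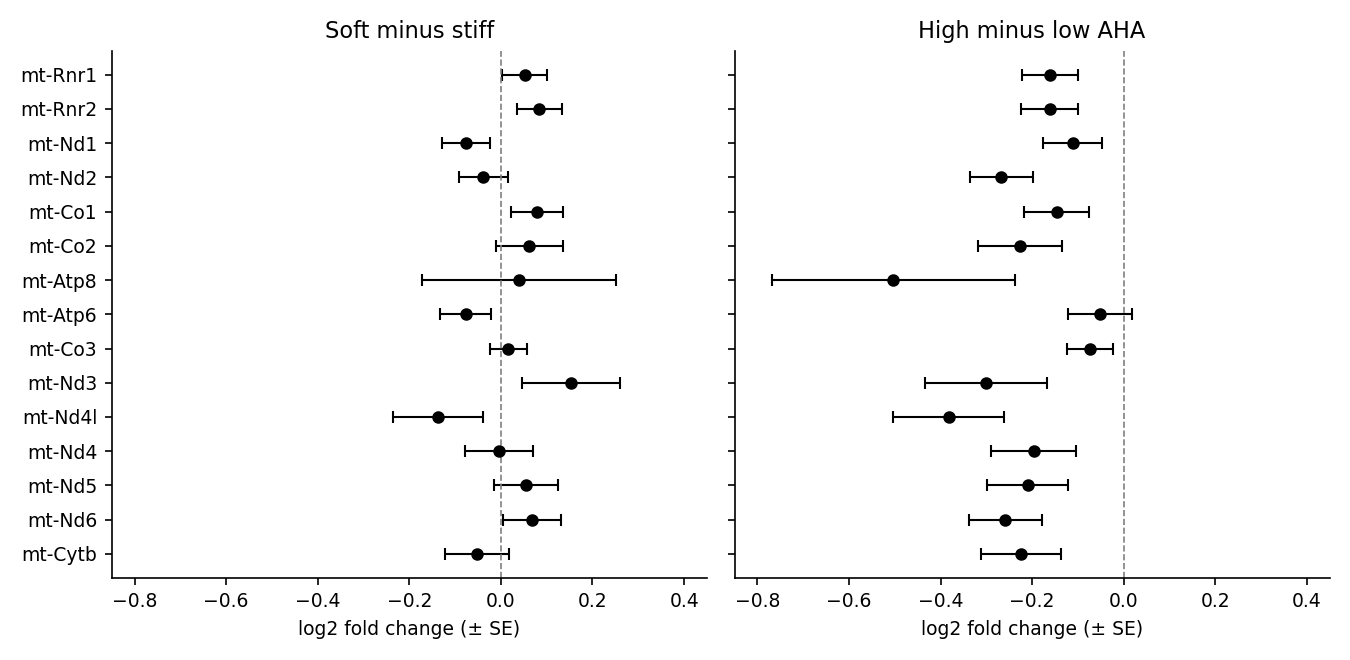
Log2 fold change with its standard error (edgeR, 17 libraries) for the 2 mt-rRNAs and 13 mt-mRNAs, for soft minus stiff (left) and high minus low AHA (right), with a dashed line at 0. Values straddle 0 on the left and all lie below it on the right, where mt-Atp6 and mt-Co3 turned above 0 with all 18 libraries, and no gene was called on either side.

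The levels behind these values are clearest for mt-Nd2 and mt-Nd6. On soft gels mt-Nd2 stood at 735, 733 and 701 CPM at low AHA, 597, 654 and 580 at mid AHA, and 544 and 561 at high AHA. The soft, low AHA libraries lay above all other soft libraries, and the high AHA libraries below. On stiff gels mt-Nd2 stood at 677, 678 and 692 CPM at low AHA, 655, 622 and 602 at mid AHA, and 725, 593 and 529 at high AHA, where replicate 1 lay above every low AHA library and the other pair below.

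For mt-Nd6, the soft libraries held 515, 486 and 461 CPM at low AHA, 433, 491 and 426 at mid AHA, and 404 and 375 at high AHA. The stiff libraries held 457, 467 and 452 CPM at low AHA, 417, 395 and 399 at mid AHA, and 482, 374 and 340 at high AHA. The same replicate again lay above the low AHA libraries of its stiffness.

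Within soft gels, high against low AHA called none of the 13 in the fit of all groups, where 0.253% of all genes were called (4 of 13 with an unadjusted p under 0.05, beside 8.51% of all genes, and 1, mt-Nd2, called by DESeq2, which called 0.275% of all genes and gave no adjusted p for 3 of the 13). The result depended on which libraries set the spread. With only the 2 soft, high and 3 soft, low AHA libraries in the fit, 6 of the 13 were called lower at high AHA, where 0.338% of all genes were called. These were mt-Nd2 at -0.39 (SE 0.05 in edgeR, adjusted p = 8.23e-10), mt-Nd6 at -0.32 (SE 0.05 in edgeR, adjusted p = 8.67e-06), mt-Nd5 at -0.26 (SE 0.04 in edgeR, adjusted p = 1.15e-05), mt-Cytb at -0.27 (SE 0.04 in edgeR, adjusted p = 6.17e-05), mt-Co2 at -0.33 (SE 0.07 in edgeR, adjusted p = 0.00193) and mt-Nd1 at -0.17 (SE 0.04 in edgeR, adjusted p = 0.00919). That fit rests on 2 high AHA libraries, and the one left out had the highest mitochondrial share of all. It also drew its spread in part from other genes, most of which vary less within groups than the mt-mRNAs, as given further on. Its p-values may thus be too small. In the fit of all groups 4 were called without stiff, high AHA replicate 1, where 0.291% of all genes were, and 1, mt-Nd2, without replicate 3, where 0.254% were.

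In the fit of all groups the remaining AHA comparisons called none of the 13. On soft gels, high minus mid AHA called 0.067% of all genes (unadjusted p under 0.05 for 0 of the 13 and 6.81% of all genes) and mid minus low AHA 0% (3 of the 13 and 6.10%). On stiff gels, high minus low AHA and high minus mid AHA each called 0.00744% of all genes (unadjusted, 2 and 1 of the 13 beside 6.04 and 5.83% of all genes) and mid minus low AHA 0% (1 of the 13 beside 4.99%). DESeq2 called 0 of the 13 in each of these 5, with no adjusted p for 3 in high minus mid AHA on soft gels. Without stiff, high AHA replicate 1, 5 of the 13 were called lower at high than at low AHA on stiff gels, with mt-Nd6 at -0.36 (edgeR, adjusted p = 1.88e-06) and mt-Nd2 at -0.28 (edgeR, adjusted p = 4.62e-05) the lowest in p, where 0.112% of all genes were called. Without it or without replicate 3, mt-Nd2 was called lower at mid than at low AHA on soft gels (-0.24 in both), the one gene of all tested that was (0.00746% in each). It was also called there with only the groups compared in the fit (-0.24 in edgeR, adjusted p = 9.78e-06), where 0.0635% of all genes were. These comparisons share their groups, so their values are not independent of each other.

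The mt-rRNAs and mt-tRNAs were tested among 16350 genes of every biotype, on the same scaling. The filter on low counts kept both mt-rRNAs and 6 of the 22 mt-tRNAs, and in the fit of all groups none of these 8 was called in any of the 13 comparisons. For soft minus stiff averaged over AHA, 6.96% of all genes were called (unadjusted p under 0.05 for 0 of the 8 and 18.3% of all genes), for high minus low AHA averaged over stiffness 0.153% (4 of the 8 and 8.72%) and for any difference among groups 4.66% (1 of the 8 and 15.1%). DESeq2 called 0 of the 8 in these, with no adjusted p for 5 or 6 mt-tRNAs. The other comparisons called 2.34, 2.19 and 0.581% of all genes for soft minus stiff at low, mid and high AHA (0 of the 8 unadjusted in each, beside 11.8, 12.2 and 9.46% of all genes), 0.183, 0.0612 and 0% for high minus low, high minus mid and mid minus low AHA on soft gels (1, 0 and 1 of the 8, beside 8.19, 6.39 and 6.15%), 0.00612, 0.00612 and 0% for the same on stiff gels (1, 0 and 0 of the 8, beside 6.07, 5.52 and 4.84%), and 0.0245% for the interaction (0 of the 8 beside 6.23%). DESeq2 called 0 of the 8 there too, but gave no adjusted p for 6 of them in soft minus stiff at each AHA concentration and in high minus low and high minus mid AHA on soft gels.

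The mt-rRNAs also had values below 0 at high AHA. High minus low AHA gave -0.16 for mt-Rnr1 (SE 0.06 in edgeR, adjusted p = 0.481) and -0.16 for mt-Rnr2 (SE 0.06 in edgeR, adjusted p = 0.485), and soft minus stiff 0.05 (SE 0.05 in edgeR, adjusted p = 0.668) and 0.08 (SE 0.05 in edgeR, adjusted p = 0.434). On the CPM scale of protein-coding counts, mt-Rnr2 stood at 64556, 63402 and 63219 in the soft, low AHA libraries, 55818 and 55434 in the soft, high AHA libraries, 58794, 59516 and 59168 at low AHA on stiff gels and 62232, 53094 and 47267 at high AHA on stiff gels. With only the groups compared in the fit, both were called lower at high than at low AHA on soft gels, where 0.306% of all genes were: mt-Rnr1 at -0.21 (edgeR, adjusted p = 3.67e-05) and mt-Rnr2 at -0.20 (edgeR, adjusted p = 9.97e-07). In such fits both were also called higher on soft than on stiff gels at low AHA, where 3.28% of all genes were (mt-Rnr1 at 0.09 and mt-Rnr2 at 0.11 in edgeR, adjusted p = 0.0108 and 0.000533). Both were called lower at mid than at low AHA on stiff gels (-0.13 and -0.12 in edgeR, adjusted p = 0.0274 and 0.0130), where they were the 2 genes called of 14632 (0.0137%). With library sizes from ERCC counts mt-Rnr2 was called between soft and stiff gels at 0.15 (edgeR, adjusted p = 0.0426), where 5.59% of all genes were.

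Of the mt-tRNAs, mt-Te had 3.16 to 7.17 CPM on soft (median 6.45) and 2.83 to 7.01 on stiff gels (median 4.51), a log2 fold change of 0.35 (SE 0.18 in edgeR, adjusted p = 0.289). For high minus low AHA, mt-Tg had -1.09 (SE 0.43 in edgeR, adjusted p = 0.384) and mt-Tp -0.89 (SE 0.33 in edgeR, adjusted p = 0.336), on means of 9.24 and 15.1 counts. At this depth differences of that size did not pass the test. Without soft, high AHA replicate 3, which left replicate 2 as the one library of that group, assumed to vary like the other groups, mt-Tp was called at -1.61 (edgeR, adjusted p = 0.0234), mt-Tg at -2.14 (edgeR, adjusted p = 0.0458) and mt-Tq, which then passed the filter, at -3.18 (edgeR, adjusted p = 0.0365), where 0.73% of the 17255 genes then tested were called.

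The mt-mRNAs spread more within groups than most genes of their level. The SD of log2 CPM around the group means was 0.105 to 0.150 for the 10 mt-mRNAs with a mean of at least 100 CPM, against a median of 0.0671 over 2501 other genes at that level, and each of the 10 exceeded 93.0% or more of those genes. Over the 17 libraries the deviations of 8 mt-mRNAs with at least 2000 counts on average (mt-Nd1, mt-Nd2, mt-Co1, mt-Atp6, mt-Nd4, mt-Nd5, mt-Nd6 and mt-Cytb) correlated pairwise at 0.721 to 0.971 (median 0.917, 28 pairs). These are values across genes of the same libraries, whose depth and scaling they share.

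Stiff, high AHA held the extremes. In replicate 1 all 13 mt-mRNAs lay above their group means (by 0.22 on the log2 scale on average), and in replicate 3 all 13 lay below (-0.23). In replicate 2, 4 of the 13 lay above, with deviations of -0.16 to 0.62 (mt-Atp8), a median of -0.07 and an average of 0.01. Outside this group the average deviation of a library ran from -0.10 (soft, mid AHA replicate 1) to 0.08 (soft, mid AHA replicate 2).

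**Figure D4:**
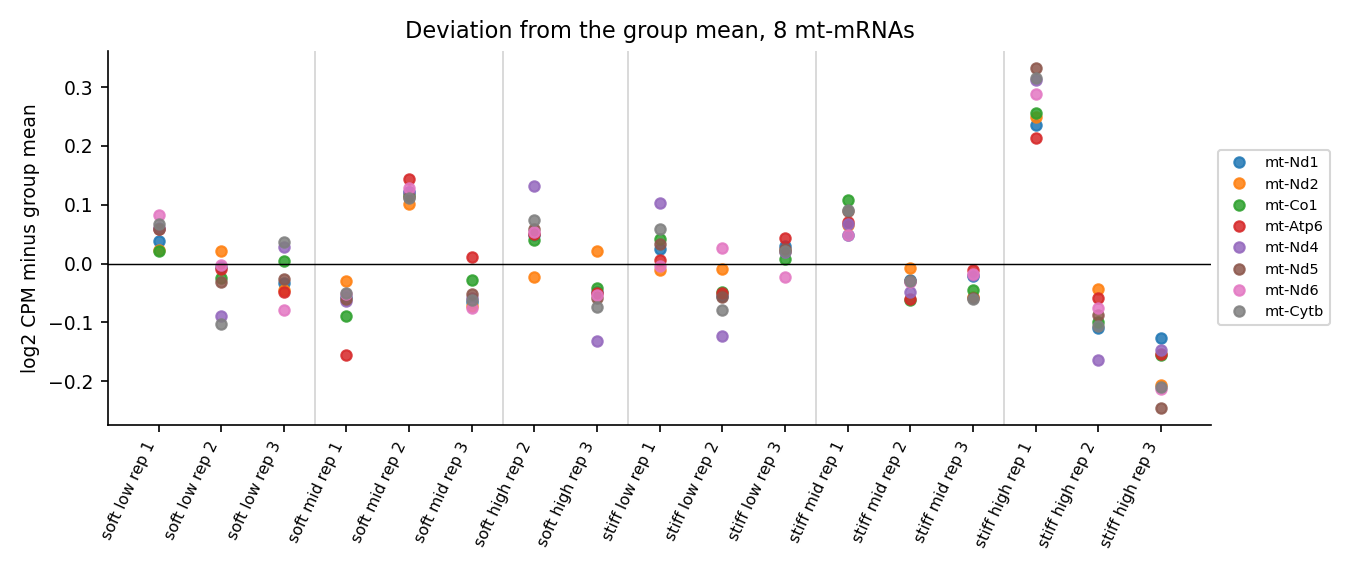
Log2 CPM minus the group mean for 8 abundant mt-mRNAs (colours) in each of the 17 libraries, grouped by condition. The genes of a library lie close together, and stiff, high AHA replicates 1 and 3 lie farthest from 0.

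Library measures were set beside the mt-mRNA share of protein-coding counts over the 17 libraries (3 relations). It rose with the mt-rRNA share (Pearson r = 0.843, permutation p adjusted over 3 = 0.00015, and Spearman rho = 0.804, adjusted permutation p = 0.00069), and r was 0.774 without the 2 libraries farthest from the median. Within groups, as residuals from the group means, r was 0.813 (adjusted permutation p = 0.00096, rho = 0.686 with adjusted permutation p = 0.00897) but fell to 0.426 without stiff, high AHA replicates 1 and 3, so within groups the relation rests on those libraries. With the ERCC share r was -0.143 (adjusted permutation p = 0.581, rho = -0.127, adjusted permutation p = 0.623, and r = -0.289 without the 2 farthest) and within groups -0.317 (adjusted permutation p = 0.213, rho = -0.297 with adjusted permutation p = 0.370, and r = -0.621 without the 2 farthest). With the share of reads not aligned r was -0.464 (adjusted permutation p = 0.0930, rho = -0.355, adjusted permutation p = 0.244, and r = -0.345 without the 2 farthest) and within groups -0.338 (adjusted permutation p = 0.213, rho = 0.00245 with adjusted permutation p = 0.997, and r = 0.491 without the 2 farthest, so its sign rests on those 2). The labels give no batch.

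The makeup of the mt-mRNA pool was described apart from its amount. Over the 17 libraries mt-Co1 made up 28.8% of mt-mRNA counts on average, mt-Nd1 19.1%, mt-Cytb 15.4% and mt-Nd5 14.2%. Within this pool mt-Nd1 took 18.5% ± 0.282 (SD, n = 8) in soft libraries against 19.6% ± 0.719 (SD, n = 9) in stiff libraries, with ranges of 17.99 to 18.78% and 18.82 to 21.11% that did not overlap. The other 12 overlapped. Among the 75 nuclear subunits of oxidative phosphorylation tested, each as a share of their summed counts, 0% did not overlap, at levels below that of mt-Nd1, and no test of this contrast was made. In the other direction mt-Co1 was 29.5% ± 0.728 on soft and 28.1% ± 0.415 on stiff gels, with overlap. These genes were picked after their values were seen, so the values are a description with no test.

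The ratio of mt-Co1 to mt-Nd1 counts needs no scaling between libraries, though 51.1% of the windows of mt-Co1 also occur in another transcript. On soft gels it was 1.55, 1.55 and 1.62 at low AHA, 1.56, 1.59 and 1.64 at mid AHA, and 1.62 and 1.63 at high AHA, with 1.64 in the library left out. On stiff gels it was 1.50, 1.49 and 1.46 at low AHA, 1.53, 1.44 and 1.45 at mid AHA, and 1.38, 1.37 and 1.33 at high AHA. Every soft library, the one left out included, lay above every stiff library, also within each AHA concentration. The pair was picked after its values were seen, and such separation was about as common among pairs of other genes, as given below.

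The 3 stiff, high AHA libraries, which spanned the widest range of mitochondrial share, had the lowest ratios of all. The average soft minus stiff difference was 0.15 on the log2 scale. Among the 105 pairs of the 15 mt-mRNA and mt-rRNA genes, 3 pairs (2.86%) had ratios that did not overlap, the others being mt-Co1 to mt-Atp6 (0.16 on the log2 scale) and mt-Nd5 to mt-Cytb (0.11). All 3 were among the 66 pairs of the 12 genes that averaged 100 CPM or more (4.55%). For the 3126250 pairs of other protein-coding genes at that level the share was 4.16%, near that of the mitochondrial pairs. In the library left out the ratio of mt-Co1 to mt-Atp6 was 6.24, below the soft range of 6.59 to 7.19 and inside the stiff range of 5.60 to 6.50. For mt-Nd5 to mt-Cytb it was 0.929, inside the soft range of 0.910 to 0.999.

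With library sizes set to the counts of the 13 mt-mRNAs, an alternative chosen after seeing the data, none of the 13 was called between soft and stiff gels (0 with an unadjusted p under 0.05, lowest adjusted p = 0.765), with mt-Nd1 at -0.08 and mt-Co1 at 0.07. This scale also moved the median of all genes in high minus low AHA from -0.00 to 0.18.

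**Figure D5:**
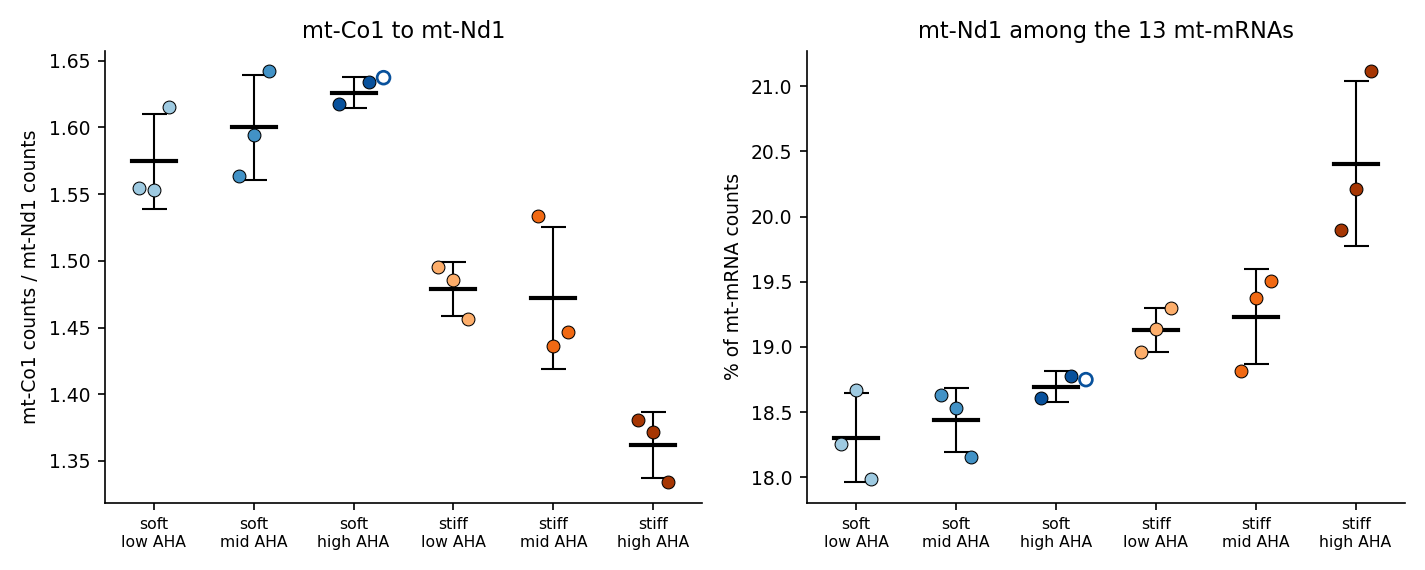
Ratio of mt-Co1 to mt-Nd1 counts (left) and mt-Nd1 as a percentage of mt-mRNA counts (right) for each library by group, with axes that do not start at 0. Bars give the mean ± SD of the libraries used (n = 3, or 2 for soft, high AHA) and open points the library left out. Soft libraries (1.55 to 1.64) lie above stiff libraries (1.33 to 1.53) on the left. Of pairs of other protein-coding genes with a mean of at least 100 CPM, 4.16% also had ratios that did not overlap.

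Of the 10 nuclear copies that passed the filter, none was called between soft and stiff gels, where 6.96% of all genes were (2 with an unadjusted p under 0.05, beside 18.3% of all genes, and 0 by DESeq2). For high minus low AHA 1 was called, where 0.153% of all genes were and DESeq2 gave no adjusted p for any of the 10. The same copy was called for any difference among the 6 groups by edgeR (adjusted p = 0.00154), which called 4.66% of all genes, and by DESeq2, which called 3.69%. This was Gm13340, the copy of mt-Co1 with 97.6% identity over 1545 bases, with -0.70 for high minus low AHA (SE 0.15 in edgeR, adjusted p = 0.0143), named because it was the one copy called. It held 17.9, 17.0 and 17.2 CPM at low AHA on soft gels, 10.4, 12.7 and 12.3 at mid AHA and 8.30 and 10.6 at high AHA. On stiff gels it held 13.2, 9.86 and 13.7 CPM at low AHA, 10.8, 11.4 and 11.1 at mid AHA and 11.5, 6.02 and 7.60 at high AHA. The soft, low AHA libraries lay above all others.

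This call rests on 25 to 95 counts a library. Left out in turn, soft, high AHA replicate 2 (adjusted p = 0.312, with 1 library left in that group), stiff, low AHA replicate 3 (0.0673) and stiff, high AHA replicates 2 (0.0529) and 3 (0.0879) each ended it under edgeR, as did ERCC library sizes (0.0793), with log2 fold changes of -0.62 to -0.66 in these 5. Since 37 of its bases differ from mt-Co1, reads between differences could come from either gene. Gm10925 had 0.02 for soft minus stiff (SE 0.08 in edgeR, adjusted p = 0.934) and -0.15 for high minus low AHA (SE 0.09 in edgeR, adjusted p = 0.691).

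Nuclear genes of mitochondrial function were summarised by 6 lists, against 8.59% of genes called between soft and stiff gels and 20.5% with an unadjusted p under 0.05. Of 18 genes for transcription and upkeep of mitochondrial DNA, 0 were called (0 with an unadjusted p under 0.05, 0 by DESeq2, median log2 fold change -0.01, beside 0.00 for all genes). The lowest adjusted p were those of Polrmt, the mitochondrial RNA polymerase, at 0.07 (edgeR, adjusted p = 0.380), Polg2, the accessory subunit of the DNA polymerase, at -0.14 (edgeR, adjusted p = 0.534) and Atad3a, a membrane ATPase of the nucleoid, at 0.05 (edgeR, adjusted p = 0.554).

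Of 27 genes for processing and stability of mitochondrial RNA, 0 were called (3 with an unadjusted p under 0.05, 0 by DESeq2, median -0.01). Elac2, which cuts the 3' ends of tRNAs, had -0.09 (edgeR, adjusted p = 0.0592), the oligoribonuclease Rexo2 -0.13 (edgeR, adjusted p = 0.168) and the rRNA methyltransferase Mrm2 -0.26 (edgeR, adjusted p = 0.201). Of 17 mitochondrial aminoacyl-tRNA synthetases, 1 rose and 0 fell on soft gels (5.88% called, 1 with an unadjusted p under 0.05, median -0.02). This was Nars2, which loads asparagine, with 9.43 to 15.4 CPM on soft (median 14.1) and 6.08 to 13.6 on stiff gels (median 9.51), a log2 fold change of 0.44 (SE 0.12 in edgeR, adjusted p = 0.00862). Fars2 for phenylalanine (0.17 in edgeR, adjusted p = 0.385) and Rars2 for arginine (-0.11 in edgeR, adjusted p = 0.410) were not called.

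Of 75 nuclear subunits of oxidative phosphorylation, 1 rose and 0 fell on soft gels (1.33% called, 9 or 12% with an unadjusted p under 0.05, median 0.01). This was Ndufa6, an accessory subunit of complex I, with 57.0 to 65.6 CPM on soft (median 61.4) and 46.6 to 61.3 on stiff gels (median 55.4), a log2 fold change of 0.17 (SE 0.06 in edgeR, adjusted p = 0.0359). The complex III subunit Uqcrc2 (0.14 in edgeR, adjusted p = 0.0542) and the complex IV subunit Cox7b (-0.11 in edgeR, adjusted p = 0.0807) were not called.

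Of 7 nuclear regulators of respiration, 0 were called (0 with an unadjusted p under 0.05, 0 by DESeq2, median 0.01), with Esrra at -0.23 (edgeR, adjusted p = 0.271), Yy1 at -0.06 (edgeR, adjusted p = 0.374) and Gabpa at 0.05 (edgeR, adjusted p = 0.439). Of 10 markers of mitochondrial mass, 0 were called (2 with an unadjusted p under 0.05, 0 by DESeq2, median -0.00), with the inner membrane scaffold Phb2 at -0.09 (edgeR, adjusted p = 0.0590), the chaperonin Hspd1 at -0.07 (edgeR, adjusted p = 0.0983) and the import receptor Tomm20 at -0.08 (edgeR, adjusted p = 0.295). For high minus low AHA, 0 genes of the 6 lists were called by edgeR, where 0.112% of all genes were, with an unadjusted p under 0.05 for 13 of the 75 subunits (17.3%, beside 8.64% of all genes) and for 1 or 2 genes of each other list. DESeq2 called 1, the chaperone Hspa9, but gave no adjusted p for 58 of the 75 subunits and for 16 of 18, 21 of 27, 14 of 17, 3 of 7 and 2 of 10 genes of the lists for DNA upkeep, RNA processing, synthetases, regulators and mass. The list medians were -0.01 to 0.03, beside -0.22 for the 13 mt-mRNAs.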

How the data were processed

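RNA was extracted from E14 mESCs on 6 gel types and sequenced in 18 libraries. The authors trimmed reads with Trim Galore 0.4.4, aligned them with GSNAP to build GRCm38/mm10, and took gene totals from HTSeq with Ensembl release 81 models. What they deposited are raw read counts without normalisation, and their strand setting is not given in the sources used here. ERCC rows and the 5 HTSeq summary lines stayed out of library sizes. These lines held 61.5 to 64.0% of each column. Genes were named with GENCODE M21 (45143 of 46078).

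Here, counts were tested with edgeR 4.0.16 (R 4.3.3): filterByExpr with a minimum count of 10, TMM normalisation, a robust quasi-likelihood fit with 1 coefficient per group, and Benjamini-Hochberg adjustment over all genes in a contrast (called under 0.05). The 13 mt-mRNAs were fitted among 13438 protein-coding genes (48090 to 97430 mt-mRNA counts a library), mt-rRNAs and mt-tRNAs among 16350 genes with the same library sizes and factors. CPM are counts per 1000000 of those library sizes. On simulated counts for soft minus stiff, 80% of log2 changes of 0.25 and 100% of 0.5 were called among 13139 protein-coding genes. Among 15846 genes of every biotype the values were 63% and 99%. How many such changes would be called at the spread of the mt-mRNAs, which exceeds that of most genes of their level, was not tested. Adjusted p that DESeq2 gives as missing stayed missing, and such genes remain in the total of its shares of all genes. Shares were tested by two-sided exact permutation, relations by 100000 two-sided permutations (SciPy 1.17.1). Windows of 50 bases and BLAST searched annotated transcripts only.

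Named were all mt-mRNAs and mt-rRNAs, the 5 highest mt-tRNAs and any called, nuclear copies with a mean of at least 100 counts, and the 3 genes of each list with the lowest adjusted p for soft minus stiff; Gm13340, and the pool shares and ratios described, were added after values were seen. The members and lists were chosen with earlier results of these data known. Alternatives were RLE factors, DESeq2 1.42.0, a minimum of 2 counts, all 18 libraries, each library left out, the compared groups alone, other scalings and denominators, all biotypes, and share labels permuted within the other factor.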

Additional observations from a re-analysis of the deposited data

How the results depend on the processing

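No paired analysis was possible because the labels give no replicate number shared between groups. Values are numbers of genes called or log2 fold changes, and the causes of the changes were not tested unless the setting itself is the change. RLE factors, TMM over nuclear genes and library sizes over every biotype changed no count of calls.

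With library sizes from ERCC counts, 1 mt-mRNA was called for soft minus stiff averaged over AHA (mt-Co1) and 1 for any difference among groups (mt-Nd6), and 1 mt-rRNA for soft minus stiff (mt-Rnr2). DESeq2 called 1 mt-mRNA for high minus low AHA averaged over stiffness, 1 on soft gels and 1 for any difference (mt-Nd2 in each), and a minimum of 2 counts gave 1 for any difference (mt-Co2). With only the compared groups fitted, calls among mt-mRNAs were 1 for soft minus stiff at mid AHA (mt-Nd6), 6 for high minus low AHA on soft gels and 1 for mid minus low AHA on soft gels (mt-Nd2), and among mt-rRNAs and mt-tRNAs, both mt-rRNAs each time, 2 for soft minus stiff at low AHA, 2 for high minus low AHA on soft gels and 2 for mid minus low AHA on stiff gels.

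Leaving out 1 library at a time, calls among mt-mRNAs ran from 0 to 4 for soft minus stiff averaged over AHA, 0 to 1 at mid AHA, 0 to 1 at high AHA, 0 to 6 for high minus low AHA averaged over stiffness, 0 to 4 on soft gels, 0 to 5 on stiff gels, 0 to 1 for mid minus low AHA on soft gels and 0 to 6 for any difference, always through stiff, high AHA replicate 1 or 3. Calls among mt-rRNAs and mt-tRNAs changed only for high minus low AHA without soft, high AHA replicate 3. Its removal left 1 library in that group and changed which genes passed the filter, so those calls are not counted here. High minus low differences in share ran from -0.830 to -0.424 percentage points for the 37 genes, -0.699 to -0.360 for mt-rRNA, -0.000634 to -0.000422 for mt-tRNA and -0.219 to -0.116 for mt-mRNA.

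The sign for soft minus stiff turned with all 18 libraries for mt-Nd2 (0.0087) and mt-Nd4 (0.037), with ERCC library sizes for mt-Nd2 (0.026), mt-Nd4 (0.062) and mt-Cytb (0.012), and with a minimum of 2 counts for mt-Nd4 (0.00027). Over libraries left out it ran from -0.074 to 0.0084 for mt-Nd2, -0.21 to 0.22 for mt-Atp8, -0.025 to 0.048 for mt-Co3, -0.055 to 0.054 for mt-Nd4 and -0.088 to 0.00704 for mt-Cytb. The sign for high minus low AHA turned with all 18 libraries for mt-Atp6 (0.021) and mt-Co3 (0.0068), with ERCC library sizes for mt-Atp6 (0.0083), and with library sizes from mt-mRNA counts, chosen after seeing the data, for mt-Nd1 (0.062), mt-Co1 (0.025), mt-Atp6 (0.12) and mt-Co3 (0.10). Over all 18 libraries r between mt-mRNA share and ERCC share turned to 0.358 and that with the share not aligned was -0.507 (adjusted permutation p = 0.0459).

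Low counts limit what the mt-tRNAs can show. Windows shared with nuclear copies limit the levels of mt-Co1, mt-Co2, mt-Atp6, mt-Co3, mt-Nd3, mt-Nd4l and mt-Nd4, and the unstated strand setting that of mt-Nd6. Permuting labels within the other factor left each share on its side of the threshold.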
